A study of Mus musculus with 6 samples.

Results

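Expression of 10 tetraspanin genes, Cd9, Cd63, Cd81, Cd82, Cd151, Tspan3, Tspan4, Tspan7, Tspan10 and Tspan31, was examined in the mouse melanoma line B16F10. They are 10 of the 51912 genes in the deposited table and were selected by name, with TPM values of these libraries and the difference between knockout and control already in view. That difference is therefore only described for them, and counts of members past a threshold are given beside those of all genes with nothing read from them. RNA was sequenced from 3 libraries of unmodified cells (WT, genotype wild type, replicates 1, 2 and 3) and 3 libraries of cells that lack annexin A10 (A10KO, genotype ANXA10-/-, numbered 1, 13 and 14 in the labels), with no treatment or time point named for either group. The labels do not say whether the numbers are clones, cultures or preparations, and the series' design text names 1 wild-type and 1 knockout line of these cells. The p-values below therefore capture variation among the 6 libraries alone, and that variation could be technical. The series' title places the study in the spread of melanoma. Anxa10 itself was listed at 0 TPM in all 6 libraries, WT included, and so gives no check of the labels.

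Tetraspanins are small proteins that pass through the membrane several times and gather integrins, immunoglobulin-family proteins and proteases into patches of the cell surface. CD9, CD63 and CD81 are widely used as markers of extracellular vesicles, CD151 holds laminin-binding integrins, and CD82 is known as a suppressor of metastasis. In pigment cells CD63 also takes part in sorting the melanosome protein PMEL.

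The promoters of Tspan7, Cd82 and Tspan10 are shown because Tspan7 was the member that was higher in every A10KO library, Cd82 the one with the largest difference downward, and Tspan10 the one known for its expression in pigment cells. Each line gives the 250 bases before the RefSeq start (GRCm38.p6), 5′ to 3′ on the strand of the gene. Capitals mark GGGCGG (the GC box) or CATGTG (a form of the E-box that MITF, the melanocyte transcription factor, can bind), each searched on both strands.
Tspan7, chrX:10484866-10485115, plus strand: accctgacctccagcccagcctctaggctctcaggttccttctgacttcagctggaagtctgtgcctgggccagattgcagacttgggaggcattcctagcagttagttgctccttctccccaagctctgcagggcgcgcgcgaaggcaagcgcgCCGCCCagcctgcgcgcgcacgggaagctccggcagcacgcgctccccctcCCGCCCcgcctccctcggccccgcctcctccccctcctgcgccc
Cd82, chr2:93462951-93463200, minus strand, the first of several starts: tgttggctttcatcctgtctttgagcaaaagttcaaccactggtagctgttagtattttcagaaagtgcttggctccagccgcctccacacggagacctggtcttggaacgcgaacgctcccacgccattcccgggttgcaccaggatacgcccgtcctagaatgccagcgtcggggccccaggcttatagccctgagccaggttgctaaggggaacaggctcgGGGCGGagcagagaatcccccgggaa
Tspan10, chr11:120442381-120442630, plus strand: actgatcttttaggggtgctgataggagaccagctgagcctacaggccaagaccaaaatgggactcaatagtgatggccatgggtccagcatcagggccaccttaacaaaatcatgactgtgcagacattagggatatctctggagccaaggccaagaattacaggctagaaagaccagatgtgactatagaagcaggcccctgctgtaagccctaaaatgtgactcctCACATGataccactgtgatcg

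The Tspan7 and Cd82 windows hold 19 and 14 CpG pairs and the Tspan10 window holds 1, against a median of 6 over 32851 RefSeq promoters. All 10 members matched the RefSeq table, 3 of them with more than 1 start. Counted per start, the GC box was found in 7 of the 15 windows of these genes, including those of Tspan7 and Cd82 shown here, and in 32.7% of all promoters. CATGTG was found in 3 of the 15, those of Cd9, Tspan3 and Tspan10, and in 12.3% of all promoters. CACGTG, searched as well, was found in 1 of the 15, a start of Tspan4, and in 6.02% of all promoters. A match describes these letters and is not evidence of binding.

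In WT cells Cd63 and Cd81 had the highest levels of the 10 genes, and Tspan7 and Cd82 the lowest. TPM is scaled by transcript length, so levels can be set beside each other between genes. Cd63 stood at 834 ± 16.6 TPM (SD, n = 3), which made up 38.5% to 39.3% of the summed TPM of the 10 genes in the WT libraries. Cd81 followed at 379 ± 35.8 TPM. Cd151 at 219 ± 6.50 and Tspan4 at 210.1 ± 24.9 TPM came next, and their WT libraries overlapped. Tspan10 at 143 ± 10.9, Cd9 at 133 ± 10.7 and Tspan3 at 133 ± 9.38 TPM formed a group in which each overlapped the next. Tspan31 stood at 77.4 ± 5.19 TPM, below all of these and with no overlap. Tspan7 at 9.57 ± 0.595 and Cd82 at 5.15 ± 0.847 TPM were each apart from their neighbours in this order. The WT mean of Cd63 was above that of 98.5% of the 12068 genes tested, and the WT mean of Cd82 above that of 23.1%.

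**Figure D1:**
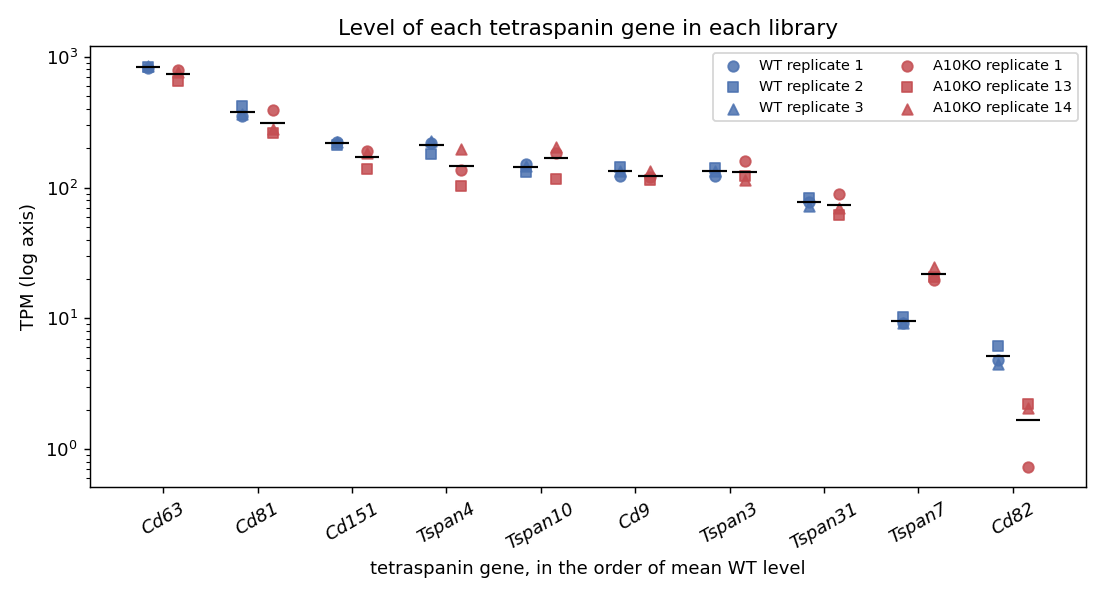
TPM (log axis) of the 10 tetraspanin genes in each of the 6 libraries, WT in blue and A10KO in red, with the mean of each group as a bar. Tspan7 is higher in all 3 A10KO libraries, and Cd63, Cd151 and Cd82 are lower in all 3, than in any WT library.

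Tspan7 was higher and Cd82 lower in A10KO than in WT, and the abundant members differed less. Of the 10 genes, 1 (Tspan7) was above every WT library in all 3 A10KO libraries and 3 (Cd63, Cd151 and Cd82) were below every WT library, where 5.61% of all genes tested were higher and 11.5% lower without overlap. In the limma fit over all genes (two-sided, on log2(TPM + 1)), 0 of the 10 passed an adjusted p under 0.05, against 0.0414% of all genes, and 4 of the 10 had an unadjusted p under 0.05, against 8.83% of all genes. The split depends on the scaling. Over all genes tested, 677 were higher and 1390 lower without overlap as deposited, and 1019 and 1025 after median-of-ratios scaling. After that scaling Tspan7 was still the 1 higher member and Cd82 was the 1 lower member without overlap. With 1 library left out, the count of lower members was 6 without A10KO replicate 1 and 5 without A10KO replicate 14 (17.4% and 21% of all genes), and Tspan10 joined Tspan7 among the higher members without A10KO replicate 13 (9.97% of all genes).

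Tspan7 (ENSMUSG00000058254, chromosome X, 10485158 to 10596605, plus strand) encodes a tetraspanin known from neurons, where its loss is linked to intellectual disability. It was listed at 9.24, 10.26 and 9.22 TPM in WT replicates 1, 2 and 3 and at 19.53, 20.68 and 24.84 TPM in A10KO replicates 1, 13 and 14. The lowest A10KO library was thus well above the highest WT library. The ratio of group means was 2.26, from 9.57 ± 0.595 to 21.7 ± 2.79 TPM, and the log2 change (A10KO minus WT, on log2(TPM + 1)) was 1.10 with an SE of 0.16. Over the 14 alternative settings this log2 change ran from 0.998, without A10KO replicate 14, to 1.21, with array quality weights. Its gene is on the X chromosome, whose median difference from WT was -0.13, 0.10 and -0.05 in A10KO replicates 1, 13 and 14, where Tspan7 itself was at 0.96, 1.04 and 1.29. Of the nearest protein-coding genes, Otc, which encodes a urea cycle enzyme, was near 0 in every library, at 0.0367 ± 0.0153 TPM in WT and 0.0533 ± 0.0252 in A10KO. Mid1ip1, on the other side and 118407 bases away, stood at 53.6 ± 10.1 and 47.9 ± 5.96 TPM.

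Of 8 neuronal and glial markers examined because Tspan7 is known from neurons, 4 were among the genes tested. Of these, 0 were higher in A10KO without overlap, where 5.61% of all genes tested were. With so few genes nothing is read from this count. The neuronal genes Snap25 and Rbfox3 were at 0.07 TPM or less in every library, and 3 of the 8 listed markers were under 1 TPM throughout. The summed level of the 8 was 632 to 661 TPM in WT and 300.2 to 532 TPM in A10KO, nearly all of it from Mbp and Tubb3. Mbp was at 39.66, 269.91 and 375.9 TPM in A10KO replicates 1, 13 and 14, against 365.41 to 422.85 in WT. Tubb3 was at 256.81, 187.09 and 150.04 TPM in these libraries, against 234.29 to 259.92 in WT. In bulk RNA, a change in the number of cells that express a gene and a change in the RNA per cell cannot be told apart.

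The genes with the pattern most like Tspan7 over the 6 libraries were Id1, Gm10040, B230206L02Rik, Ehd3 and Slco3a1. They had the smallest Euclidean distances to Tspan7 among 9375 genes whose mean was 5 TPM or more, on log2(TPM + 1) centred on each gene's mean. Id1, an inhibitor of helix-loop-helix transcription factors, was nearest with a distance of 0.34, and Slco3a1, a transporter gene, was the fifth with 0.47. Id1 stood at 12.66, 13.73 and 13.83 TPM in the WT libraries and at 24.06, 34.45 and 31.76 TPM in the A10KO libraries. Ehd3, which encodes a protein of endosomal recycling, stood at 12.4 ± 0.839 and 22.3 ± 3.36 TPM. The 5 lie on chromosomes 2, 3, 11, 17 and 7, none of them on the X chromosome. That chromosome held 274 of the 9371 placed genes averaging 5 TPM or more, so nothing is read from its absence here.

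Cd82 (ENSMUSG00000027215, chromosome 2, 93419111 to 93463140, minus strand) was low in all libraries and lower in A10KO. It stood at 4.83, 6.11 and 4.51 TPM in WT replicates 1, 2 and 3 and at 0.73, 2.23 and 2.06 TPM in A10KO replicates 1, 13 and 14. The groups did not overlap, and A10KO replicate 1 was the lowest. The log2 change was -1.25 (SE 0.29), from 5.15 ± 0.847 to 1.67 ± 0.821 TPM, and it was -1.69 with a pseudocount of 0.1, since a pseudocount of 1 understates the change of a gene this low. In A10KO replicate 1 the genes of chromosome 2 as a whole had a median of -0.44 on the log2 scale, against 0.10 and 0.00 in replicates 13 and 14. The difference of Cd82 from WT was -1.82 in that library and -0.92 and -0.998 in replicates 13 and 14, and with chromosome medians removed its log2 change was -1.13. The part of the chromosome in the value of replicate 1 was not tested.

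**Figure D2:**
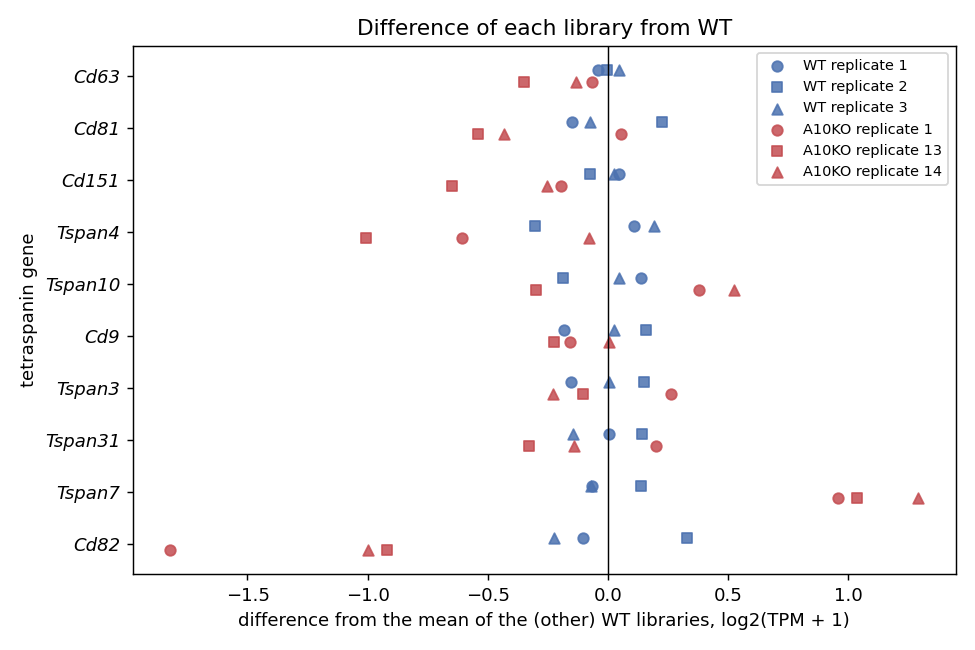
Difference of each library from WT on the log2(TPM + 1) scale for the 10 genes, where A10KO libraries (red) are set against the mean of WT and each WT library (blue) against the mean of the other two. Tspan7 lies near 1 and Cd82 at or below -0.92 in the A10KO libraries, while the WT libraries lie within 0.33 of 0.

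The 3 vesicle markers were all abundant in A10KO too. Cd63 (ENSMUSG00000025351, chromosome 10, 128900989 to 128912822) stood at 817.6, 832.18 and 850.74 TPM in WT replicates 1, 2 and 3 and at 795.35, 653.29 and 759.52 TPM in A10KO replicates 1, 13 and 14. Every A10KO library was below every WT library, by little in replicate 1. Its log2 change was -0.18 (SE 0.12), -0.24 with chromosome medians removed and -0.10 without A10KO replicate 13. Cd81 (ENSMUSG00000037706, chromosome 7, 143052739 to 143067934) was at 351.98, 419.34 and 364.46 TPM in WT and at 392.1, 259.11 and 279.06 TPM in A10KO. A10KO replicate 1 lay within the WT range and the other two below it, with a log2 change of -0.31 (SE 0.18) that ran from -0.49 without A10KO replicate 1 to -0.12 with chromosome medians removed, and was -0.19 without A10KO replicate 13. Cd9 (ENSMUSG00000030342, chromosome 6, 125460266 to 125494791), known for its part in the fusion of egg and sperm, was at 122.22, 143.46 and 134.73 TPM in WT and at 119.41, 113.73 and 133.46 TPM in A10KO. The Cd9 groups overlapped, and its log2 change of -0.13 (SE 0.12) was close to its SE. It ran from -0.19 to -0.06 over the 14 alternatives.

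Cd151 and Tspan4 are neighbours on chromosome 7 and both were lower in A10KO replicate 13. Cd151 (ENSMUSG00000025510, 141467392 to 141471473) ends 3766 bases before Tspan4 (ENSMUSG00000025511, 141475240 to 141493427) begins, on the same strand, with Polr2l between them. Cd151 was at 224.24, 212 and 221.91 TPM in WT replicates 1, 2 and 3 and at 191.3, 139.61 and 183.74 TPM in A10KO replicates 1, 13 and 14. All A10KO values were below the WT range, and the log2 change was -0.37 (SE 0.14), and -0.23 without A10KO replicate 13. Tspan4, a marker of migrasomes (organelles that migrating cells leave behind), was at 219.8, 181.73 and 228.7 TPM in WT and at 136.75, 103.45 and 198.01 TPM in A10KO. A10KO replicate 14 lay within the WT range, and the log2 change was -0.56 (SE 0.23), -0.34 without A10KO replicate 13 and -0.81 without A10KO replicate 14.

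Genes of chromosome 7 were lower in general in A10KO replicate 13. Over its 681 genes with a mean of 5 TPM or more the median difference from WT was -0.11, -0.35 and -0.10 in A10KO replicates 1, 13 and 14, against -0.12, 0.00 and -0.02 over all chromosomes. Cd151, Tspan4 and Cd81, the members on chromosome 7, were at -0.65, -1.01 and -0.54 in replicate 13. With chromosome medians removed the log2 change of Cd151 was -0.18, that of Tspan4 -0.38 and that of Cd81 -0.12. The part of the chromosome in these values was not tested further. Of 6 other protein-coding genes within 25000 bases of Cd151 and Tspan4, a window chosen after their values were seen, Rplp2, Pnpla2, Cracr2b and Polr2l were lowest of all libraries in replicate 13, and Chid1 and Pidd1 were not. Rplp2, which encodes a ribosomal protein, was at 652.2 TPM there and between 1219.87 and 1362.31 TPM in the other 5 libraries. Polr2l, a subunit gene of RNA polymerases, was at 22.76 TPM there and between 35.14 and 44.47 TPM elsewhere. Pnpla2 and Cracr2b were below every WT library in all 3 A10KO libraries. Pnpla2 was at 39.36, 24.56 and 29.55 TPM in A10KO replicates 1, 13 and 14, against 44.86 to 46.27 in WT. Cracr2b was at 9.64, 5.72 and 8.8 TPM, against 12.77 to 13.79 in WT. The share of all genes that were lowest in replicate 13 is not given here.

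**Figure D3:**
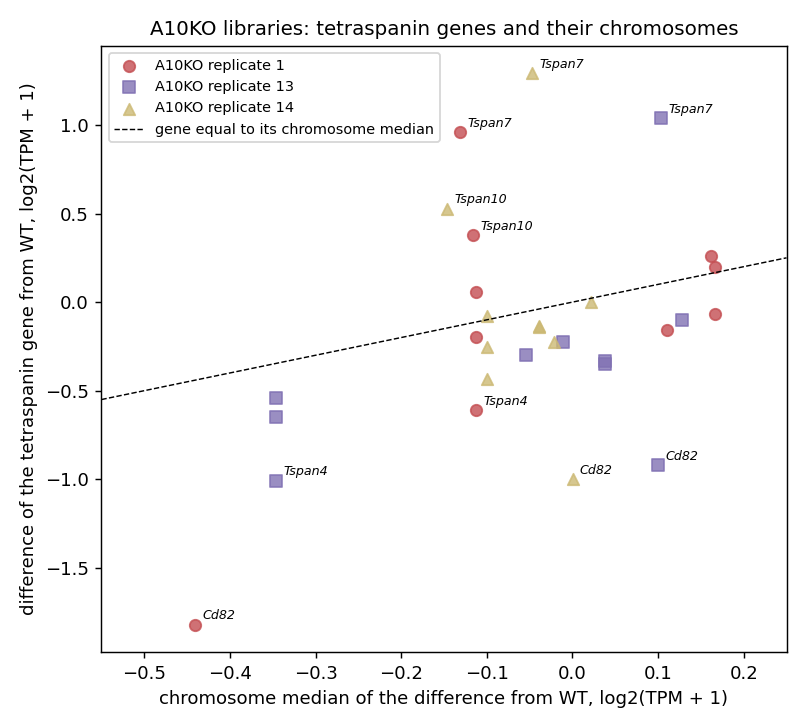
Difference of each of the 10 genes from WT in the A10KO libraries (vertical) against the median difference over genes of its own chromosome (horizontal), both on log2(TPM + 1), with a dashed line where they are equal. Tspan7 lies far above the line in all 3 libraries and Cd82 far below it, and the chromosome 7 genes sit at -0.35 on the horizontal axis in replicate 13.

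Tspan10, Tspan3 and Tspan31 did not differ in 1 direction. Tspan10 (ENSMUSG00000039691, chromosome 11, 120442644 to 120446950), a partner of the protease ADAM10, was at 151.83, 130.55 and 145.48 TPM in WT replicates 1, 2 and 3 and at 185.14, 115.41 and 205.44 TPM in A10KO replicates 1, 13 and 14. Replicates 1 and 14 were above the WT range and replicate 13 was below it. The log2 change of 0.20 (SE 0.22) was 0.45 without A10KO replicate 13 and 0.04 without A10KO replicate 14. Tspan3 (ENSMUSG00000032324, chromosome 9, 56131725 to 56165477) was at 123.56, 142.31 and 133.05 TPM in WT and at 159.25, 123.47 and 113.29 TPM in A10KO, again on both sides of WT. Its log2 change of -0.02 (SE 0.15) changed sign under 6 of the 14 alternatives. Tspan31 (ENSMUSG00000006736, chromosome 10, 127067280 to 127070264), a gene amplified in some sarcomas, was at 77.46, 82.51 and 72.13 TPM in WT and at 88.85, 61.25 and 70.03 TPM in A10KO, with a log2 change of -0.09 (SE 0.16) that was 0.03 without A10KO replicate 13. The end of Tspan31 overlaps the cell cycle kinase gene Cdk4 on the opposite strand by 641 bases. Cdk4 stood at 300.1 ± 19.8 and 286 ± 67.7 TPM, and since the strand setting is not given in the sources used here, reads from the shared bases cannot be told apart.

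The A10KO libraries varied more among themselves than the WT libraries for most genes. The SD of log2(TPM + 1) was larger in A10KO than in WT for 10 of the 10 genes, for 7 of 12 other tetraspanins and for 78.2% of all genes tested. The lowest of the A10KO values fell in replicate 13 for 7 of the 10 genes, in replicate 1 for 2 (Tspan7 and Cd82) and in replicate 14 for 1 (Tspan3). The 7 include Cd81, Cd151 and Tspan4 on chromosome 7. The matching share of all genes is not given here, so nothing is read from this count. Summed TPM of the 10 genes was 2103, 2160 and 2165 in WT replicates 1, 2 and 3 and 2088, 1592 and 1969 in A10KO replicates 1, 13 and 14. Mitochondrially encoded transcripts made up 14.7% of TPM in A10KO replicate 13, 7.93% and 7.37% in replicates 1 and 14 and 6.32% to 6.56% in WT. With these transcripts removed the count of members without overlap was 1 higher and 3 lower, the same as before. Over all genes tested the shares did move, to 7.86% higher and 8.41% lower, from 5.61% and 11.5% as deposited. The part of these transcripts in the values of replicate 13 was not tested further. The summed level of 7 melanocyte markers was high in every library, at 8913 to 10016 TPM in WT and 9410 to 11254 TPM in A10KO. Most of it came from Tyrp1, Mlana, Dct and Pmel. Tyr was far lower, at 22.15 to 24.18 TPM in WT and at 13.38, 25.02 and 43.8 TPM in A10KO replicates 1, 13 and 14.

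Outside the 10 genes, the tetraspanin list held 22 further names, of which 21 were in the table and 12 passed the filter of at least 1 TPM in at least 3 libraries. In limma 0 of the 12 passed an adjusted p under 0.05 and 3 had an unadjusted p under 0.05 (8.83% of all genes tested). Cd37, one of the 3, passed the filter through the WT libraries alone and so had to differ. Without it, 2 of 11 had an unadjusted p under 0.05, Tspan33 (higher) and Tspan17 (lower). Groups did not overlap for 3 of the 11, Tspan17, Tspan5 and Tspan6, all lower in A10KO, where 11.5% of all genes were lower without overlap. The median log2 change was 0.08 over the 11 and 0.05 over the 12, against -0.04 over all genes tested and -0.16 over the 10 members. Cd37, a tetraspanin of leukocytes, was at 2.37, 1.51 and 2.22 TPM in WT and at 0.3, 0.26 and 0.23 TPM in A10KO (log2 change -1.25, SE 0.23). With a pseudocount of 0.1 this change was -2.53. Beside it, 8 of 11 table entries of leukocyte markers were under 1 TPM in all libraries, with Tyrobp and Cd3e at 0 in all libraries, Ptprc at 0.01 TPM or less, and a summed level of 4.14 to 8.08 TPM in WT and 2.34 to 5.76 TPM in A10KO over the 11. Cd68, a marker of macrophages, was lower in A10KO, at 3.97 ± 1.35 TPM in WT and 1.01 ± 0.24 in A10KO. Coro1a, an actin-binding protein gene of leukocytes, had the higher mean in A10KO, at 1.13 ± 0.45 and 2.8 ± 1.8 TPM. The part of these markers in the Cd37 values was not tested. Cd53, a further leukocyte tetraspanin, was at 0.03 TPM or less. Tspan8, a tetraspanin of epithelia, was at 0.23 TPM or less, and Upk1b, of the bladder lining, was listed at 0 in all libraries.

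The ADAM10 partners of the family, the TspanC8 group, differed in direction. The summed level of the 6 was 209 ± 12.9 TPM in WT and 226 ± 50.5 in A10KO. Tspan10 was the most abundant of the 6, and the summed level of the other 5 was 66.3 ± 3.59 TPM in WT and 57.3 ± 3.28 in A10KO. Tspan17 stood at 16.9 ± 2.23 and 10.2 ± 2.53 TPM (log2 change -0.69, SE 0.22, limma adjusted p = 0.433), with no overlap between the groups. Tspan33 stood at 1.13 ± 0.22 and 3.37 ± 1.96 TPM (0.92, SE 0.37, adjusted p = 0.549) and overlapped through A10KO replicate 14 at 1.27 TPM. The Tspan33 change was 0.62 without A10KO replicate 13. Tspan14 was at 36.0 ± 2.51 and 32.1 ± 2.38 TPM, Tspan5 at 8.15 ± 0.161 and 6.69 ± 1.24, and Tspan15 at 4.10 ± 1.11 and 4.92 ± 0.103. Adam10, the protease that this group carries to the surface, stood at 28.4 ± 6.77 and 27.6 ± 4.75 TPM.

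Among the other expressed tetraspanins, Tspan9, Tspan12, Tspan13 and Rom1 overlapped between the groups. Tspan9 was at 51.1 ± 14.9 and 54.3 ± 5.2 TPM in WT and A10KO, Tspan12, a co-receptor of FZD4 signalling, at 27.8 ± 2.35 and 30.5 ± 3.71, and Tspan13 at 16.5 ± 1.33 and 17.6 ± 2.94. Tspan6, also on the X chromosome, was at 11.7 ± 1.15 and 9.14 ± 1.36 TPM (log2 change -0.33, SE 0.18, limma adjusted p = 0.648), opposite in sign to Tspan7, and its change was -0.22 without A10KO replicate 13. Rom1, known from photoreceptors, was at 1.72 ± 0.455 and 2.44 ± 0.536 TPM.

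Of the known membrane partners, 17 of 27 were tested, 0 passed the adjusted threshold in limma and 1 had an unadjusted p under 0.05, against 8.83% of all genes. That gene was Igsf8, which encodes an immunoglobulin-family protein bound directly by CD9 and CD81. It was at 145.83, 145.62 and 135.28 TPM in WT and at 94.47, 74.32 and 125.55 TPM in A10KO, without overlap (log2 change -0.56, SE 0.19, adjusted p = 0.471). The Igsf8 change was -0.35 with array quality weights. Groups did not overlap for 1 further partner, the lipid kinase gene Pi4k2a, at 21.7 ± 0.305 and 19.4 ± 3.04 TPM. With both, 2 of 17 were lower without overlap, which is near the 11.5% of all genes. Timp1, a secreted protease inhibitor that binds CD63, stood at 18.4 ± 2.95 and 12.2 ± 4.84 TPM (-0.60, SE 0.26, adjusted p = 0.566). The integrin chain gene Itgb1 stood at 149 ± 27.1 and 147 ± 13.7 TPM, and Itgb4 at 2.17 ± 0.318 and 2.87 ± 0.597. Itga3 and Itga6, the laminin-receptor chains tied to CD151, stood at different levels, with Itga6 at 50.03 ± 7.97 and 43.1 ± 14.5 TPM and Itga3, below the filter, at 1.08 ± 0.249 and 0.727 ± 1.06. The protease gene Mmp14 stood at 144 ± 10.5 and 133 ± 22.0 TPM, Cd44 at 69.6 ± 9.89 and 62.3 ± 7.28, and Hbegf, a growth factor bound by CD9, at 3.38 ± 0.565 and 5.13 ± 2.19. The median log2 change of the 17 was -0.13.

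Of 22 genes of multivesicular bodies and extracellular vesicles, 20 were tested, 0 passed the adjusted threshold in limma and 2 had an unadjusted p under 0.05, a share near the 8.83% of all genes. The 2 were flotillins. Flot1 and Flot2 encode scaffold proteins of membrane microdomains. Flot1 was at 17.7, 23.51 and 17.15 TPM in WT and at 10.36, 12.43 and 10.4 TPM in A10KO (log2 change -0.75, SE 0.18, adjusted p = 0.297). Flot2 was at 48.89, 51.4 and 48.63 TPM in WT and at 38.07, 34.81 and 41.59 TPM in A10KO (-0.37, SE 0.12, adjusted p = 0.463). Groups did not overlap for either, nor for 3 further lower genes (Chmp4b, Sdc4 and Tsg101) and 1 higher gene (Ap3d1). These are 5 of 20 lower and 1 of 20 higher, against 11.5% and 5.61% of all genes. Chmp4b, a subunit of the membrane-cutting ESCRT complex, stood at 178 ± 2.97 and 143 ± 29.2 TPM, and Sdcbp, the syntenin gene that acts with CD63 in vesicle formation, at 153 ± 15.2 and 134 ± 16.7. Sdc1 was at 46.5 ± 6.74 and 33.3 ± 8.22 TPM, the lysosomal Lamp1 at 341 ± 3.20 and 369 ± 81.9, and the melanosome gene Pmel at 1699 ± 139 and 1528 ± 256. The median log2 change of the 20 was -0.11.

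**Figure D4:**
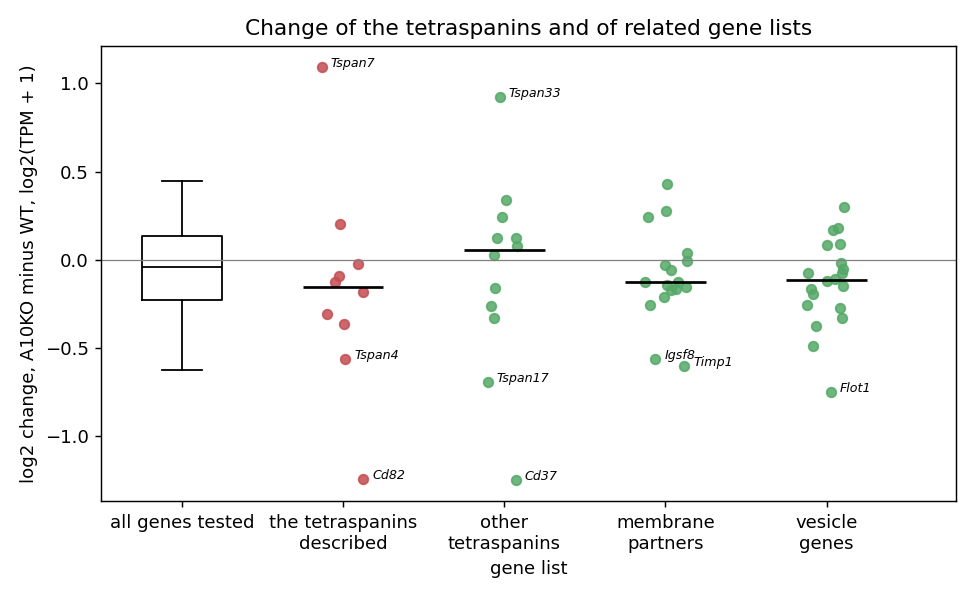
Log2 change (A10KO minus WT, log2(TPM + 1)) of all 12068 genes tested as a box (quartiles, whiskers from the 5 to the 95 percentile), and of single genes of the 10 tetraspanins, 12 other tetraspanins, 17 partners and 20 vesicle genes as points, each list with its median as a bar. Tspan7 at 1.10 and Cd82 at -1.25 lie outside the whiskers, which end at 0.45 and -0.63, and list medians lie between -0.16 and 0.05.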

How the data were processed

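Total RNA of B16F10 cells was extracted with Trizol, treated with DNase I and sequenced on the Illumina platform, per the labels' protocols. The submitters' processing notes list GRCm38.p5 as the genome build and name RSEM, HISAT and fastp, without the versions, settings or order, which the sources used here do not give. The deposited values were read as TPM, although their table is presented as raw counts, because they have decimals and each column sums to between 969834 and 985045. Depth cannot be recovered from TPM and is unknown, and no counting interval is given. Each library's own table matched the series table in 6 of 6 cases.

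Genes were placed by identifier in GENCODE M21 (GRCm38). The fit took the 12068 genes that reached 1 TPM in 3 or more libraries. It used log2(TPM + 1), a mean-variance trend and limma 3.58.1 (R 4.3.3), and p-values were adjusted by Benjamini-Hochberg over all of them at a threshold of 0.05. The script was run on simulated data with changes larger than most reported here, planted in genes of 5 TPM or more. That run does not show how well smaller changes or lower genes are found. Chromosome medians used 9371 genes averaging 5 TPM or more. Members and gene lists were chosen with earlier results of these data known. Named genes were all members, other tetraspanins with a mean of at least 1 TPM, and from each partner or vesicle list the called genes, up to 4 with the highest mean and up to 4 with the largest change. Adam10, Itga3, Itga6, Pi4k2a, Sdc4, Tsg101, Ap3d1, Cd53, Tspan2, Tspan8 and Upk1b fall outside this rule and were added after their values were seen. No rule was set for which genes of the cell type marker lists to name, such as Mbp, Tubb3, Cd68, Coro1a and Tyr. Alternatives were another pseudocount, 2 other filters, 2 other scalings, mitochondrial transcripts removed, chromosome medians removed, array quality weights and each library left out with the tested genes kept.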

Additional observations from a re-analysis of the deposited data

How the results depend on the processing

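The count of genes called in limma was 5 and moved to 25 with array quality weights and 3 under quantile normalization, and ran from 2 (without WT replicate 1 or 2) to 8 (without A10KO replicate 1) with 1 library left out. Of the members, Tspan7 was called with array quality weights, where 25 of all genes were called, and under no other setting. No other member was called under any of the 14. The members were selected with their differences in view, so nothing is read from this call. None of the other tetraspanins, partners or vesicle genes was called under any of the 14. Of 139 log2 changes of members under the alternatives, 137 stayed within 1 SD of the value reported. The exceptions were Cd151 at -0.18 with chromosome medians removed and Cd82 at -1.69 with a pseudocount of 0.1. The SD here is that among libraries and not the SE of the change, by which more would have moved. Tspan4, for example, went from -0.56 (SE 0.23) to -0.81 without A10KO replicate 14. Cd82 was below the filter of 5 TPM and was not tested there. The sign changed for Tspan3 (6 alternatives) and Tspan31 (1). In settings added after the data were seen, 1 member was lower without overlap under median-of-ratios scaling (8.49% of all genes). With 1 library left out the count of members ran from 3 to 6 lower and from 1 to 2 higher. The shares of all genes also rose there, to between 14.2% and 21% lower and between 7.42% and 13.4% higher. The cause of these moves was not tested. No paired analysis was possible because the groups share only the number 1. Depth is unknown, so the precision of low genes such as Cd82 cannot be given.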

Other observations

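Transcripts that overlap or copy the tetraspanins were mostly low. Gm28809, annotated as antisense inside Cd9, was at 9.69, 13.03 and 6.85 TPM in WT replicates 1, 2 and 3 and at 14.91, 6.27 and 6.35 TPM in A10KO replicates 1, 13 and 14, and with the strand setting not given its reads and those of Cd9 cannot be told apart. Gm10575 overlaps the start of Cd151 on the opposite strand by 380 bases, with levels of 1.46 ± 0.456 (WT) and 0.617 ± 0.374 TPM (A10KO, SD, n = 3). The same limit holds for Chid1, which overlaps the end of Tspan4 by 292 bases and stood at 19.9 ± 1.74 and 14.4 ± 3.91 TPM, and for R74862, which overlaps the start of Cd81 by 948 bases and stood at 3.35 ± 1.04 and 2.45 ± 1.31. Gm10804, opposite Cd82, was at 0.03 TPM or less. The pseudogene Cd63-ps stood at 1.02 ± 0.283 and 1.04 ± 0.375 TPM, and Cd9-ps was listed at 0 in all libraries. Tspan2, a tetraspanin known from oligodendrocytes and under the filter, was at 0.19, 0.25 and 0.23 TPM in WT and at 0.04, 0.01 and 0 TPM in A10KO.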
